A study of Mus musculus with 18 samples.

Results

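The 10 genes described here are Hspa5, Hsp90b1, Calr, Pdia4, Dnajb9, Herpud1, Xbp1, Atf4, Ddit3 and Trib3, a set of markers of endoplasmic reticulum (ER) stress and of the unfolded protein response (UPR). They were taken by symbol from a table of 55270 genes measured in the mouse substantia nigra, the midbrain region that holds the dopamine neurons of the nigrostriatal pathway. All 10 were found and all 10 passed the filter on low values that 19443 genes passed. Poly-A RNA of 18 mice was sequenced in 3 groups of 6, all taken at 3 months of age, which for the injected mice was about a month after an adeno-associated virus (AAV). The groups were intact wild-type mice without virus, mice given AAV-GFP, which carries the green fluorescent protein gene, and mice given AAV-SIRT3, which carries the gene of the mitochondrial deacetylase SIRT3. AAV-SIRT3 against intact therefore changes the injection, the virus and its cargo together, and AAV-SIRT3 against AAV-GFP compares viruses that differ in cargo. Whether the vectors match in all but the cargo cannot be checked here. The promoter of the vectors, the cells they entered and the sex of the mice are not given in the sources used here.

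Proteins that enter the ER are folded there by chaperones, glycosylated and joined by disulfide bonds. When unfolded protein builds up, BiP, the product of Hspa5, leaves the ER membrane sensors IRE1 (Ern1), PERK (Eif2ak3) and ATF6 (Atf6), and each sensor starts one branch of the response. ATF6 and spliced XBP1, which is made when IRE1 cuts the Xbp1 mRNA, raise chaperones and the machinery of ER-associated degradation (ERAD), while PERK phosphorylates eIF2 alpha, slows translation and favours translation of ATF4, which raises Ddit3 (CHOP) and Trib3. Nigral dopamine neurons are often studied for ER stress because of their high secretory and synaptic load.

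ATF6 and XBP1 are known to act on chaperone genes through the ER stress response element (ERSE), so the proximal promoters of the members were read from RefSeq (build GRCm38.p6) and searched on both strands over the 250 bases before each start. The ERSE, a CCAAT box followed after 9 free bases by CCACG, was in 3 of the 10 members, Hspa5, Hsp90b1 and Calr, and in 0.113% of all 32851 promoters of that length. Its short relative ERSE-II, ATTGG and CCACG with 1 free base between them, was in Herpud1 and in 0.0304% of promoters. Both elements contain a CCACG and a CCAAT box, which in ERSE-II is on the opposite strand as ATTGG. The CCAAT box alone was in 8 members and in 33.8% of promoters. The members were picked as known UPR markers, so these shares describe the promoters and are no test of enrichment. The matches are shown to make the shared letters visible, read on the strand of the motif, with the fixed letters in capitals and the free positions in lower case:
Hspa5: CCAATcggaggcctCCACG
Hsp90b1, distal: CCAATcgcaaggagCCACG
Hsp90b1, proximal: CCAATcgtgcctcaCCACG
Calr: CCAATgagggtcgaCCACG
Herpud1, ERSE-II: ATTGGgCCACG

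The Hspa5 match lay 65 to 47 bases before the RefSeq start, the Hsp90b1 matches 212 to 194 and 107 to 89 bases before it, the Calr match 162 to 144 bases before it and the Herpud1 ERSE-II 52 to 42 bases before it. GENCODE M21 places some starts further upstream. By it, 120 of the 250 bases of Hspa5, with its ERSE, and all 250 of Dnajb9 lie inside the gene. The same holds for 65 bases of Hsp90b1, 19 of Ddit3 and 3 of Calr, without their matches. A further element of the ATF4 branch, the CARE motif TGATGNAA, was found in Herpud1 alone among the members, 112 to 105 bases before the start, against 3.45% of promoters. The UPRE core TGACGTGG and the CRE TGACGTCA were in 0 members, against 0.563% and 1.55% of promoters. The stretches before the earliest annotated starts of Hsp90b1, Calr and Herpud1 show how the elements are placed, each 5′ to 3′ on the strand of the gene, with ERSE, ERSE-II and CARE matches in capitals:
Hsp90b1, chr10:86705510-86705694, minus strand: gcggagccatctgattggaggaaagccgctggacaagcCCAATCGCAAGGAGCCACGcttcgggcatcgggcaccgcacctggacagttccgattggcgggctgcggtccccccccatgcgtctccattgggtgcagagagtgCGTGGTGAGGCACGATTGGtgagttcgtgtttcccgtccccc
Calr, chr8:84846935-84847181, minus strand: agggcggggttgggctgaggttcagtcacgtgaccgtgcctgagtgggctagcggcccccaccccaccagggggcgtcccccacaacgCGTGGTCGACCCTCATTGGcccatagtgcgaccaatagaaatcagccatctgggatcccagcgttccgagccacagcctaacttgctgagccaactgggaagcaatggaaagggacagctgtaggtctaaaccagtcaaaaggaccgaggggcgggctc
Herpud1, chr8:94386179-94386428, plus strand: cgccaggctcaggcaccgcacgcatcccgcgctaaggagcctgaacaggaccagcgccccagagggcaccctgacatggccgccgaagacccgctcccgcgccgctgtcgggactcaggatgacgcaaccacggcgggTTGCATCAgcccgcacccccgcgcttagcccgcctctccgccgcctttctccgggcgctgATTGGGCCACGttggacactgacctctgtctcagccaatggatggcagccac

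The values are normalised read counts, that is, reads per gene divided by a size factor per library, and the libraries held 47182529 to 64728587 reads assigned to genes. Sirt3 itself averaged 1824 ± 66.3 in intact, 1775 ± 92.4 after AAV-GFP and 1937 ± 79.4 after AAV-SIRT3 (SD, 6 libraries each). Its difference between AAV-SIRT3 and AAV-GFP was 0.13 on the log2 scale (limma, adjusted p = 0.183), so the groups are named by their labels. A gene counted by mouse annotation need not show a transgene that differs in sequence or lacks the counted exons, and the transgene's sequence is not given in the sources used here. Markers of dopamine neurons were present in every library, with a summed value of 47321 to 62773 in intact (median 55669), 41010 to 52369 in AAV-GFP (median 45659) and 46746 to 55655 in AAV-SIRT3 (median 53698). Of the 9 markers, 2 fell in AAV-GFP against intact, and their part in the results below was not tested.

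Differences below are in log2(value + 1), from a limma model of all 18 libraries, and a gene is said to rise or fall only with a Benjamini-Hochberg adjusted p below 0.05 over all 19443 genes. In AAV-SIRT3 against intact, 5 of the 10 members rose and 0 fell, where 21.7% of all genes tested passed, 11.3% as rises and 10.3% as falls. Those were Herpud1, Atf4, Xbp1, Ddit3 and Calr. In AAV-GFP against intact, Xbp1 alone rose and 0 members fell, where 1.84% of all genes passed, 0.823% as rises and 1.02% as falls. In AAV-SIRT3 against AAV-GFP, 0 of the 10 passed by limma, edgeR or DESeq2, where 0.113% of all genes passed by limma, 0.036% as rises and 0.0771% as falls. An unadjusted limma p below 0.05 was seen there for 3 members, and for 2964 of the 19443 genes. It was seen for 7 members and 3707 genes in AAV-GFP against intact, and for 6 members and 6788 genes in AAV-SIRT3 against intact. The adjusted threshold was harder to reach in AAV-GFP against intact. Pdia4 missed it there with a limma p of 0.00488, while Calr passed in AAV-SIRT3 against intact with 0.00504. The counts of 5 and 1 therefore do not measure how far the 2 virus groups differ.

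The size of these changes was small. The median difference of the 10 members was 0.17 in AAV-GFP against intact and 0.20 in AAV-SIRT3 against intact, against medians over all genes of 0.00074 and -0.0049. All 10 members were above 0 in AAV-GFP against intact, and 9 of 10 in AAV-SIRT3 against intact. These 2 comparisons share the intact libraries, so their values are not independent of each other. In AAV-SIRT3 against AAV-GFP the median was 0.02, with 6 members above 0 and 4 below. The plot of the member values by library and the plot of fitted differences show both features.

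**Figure D1:**
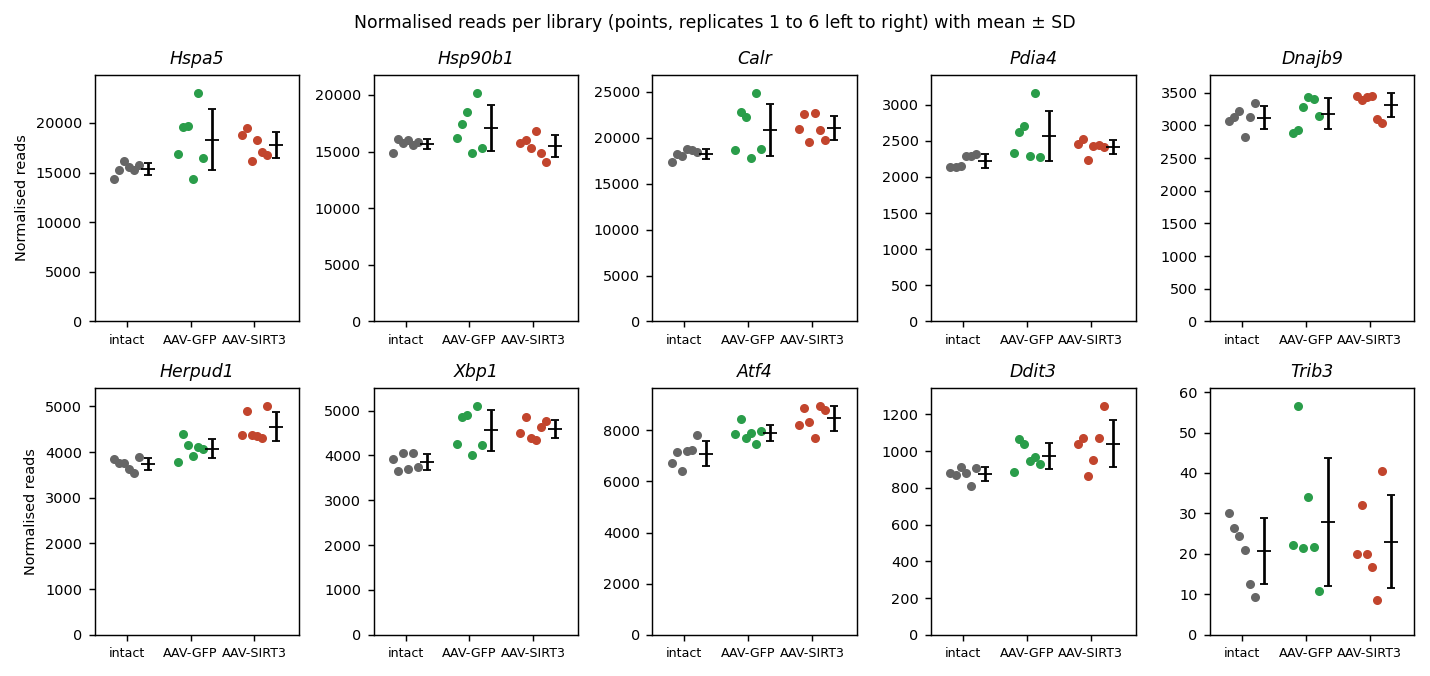
Normalised reads (y axes, from 0) of the 10 members in each of the 18 libraries, by group (x axes), with points for replicates 1 to 6 from left to right and bars for mean ± SD. In AAV-SIRT3, all 6 libraries of Herpud1, Xbp1 and Calr lie above all 6 intact libraries, while Hspa5, Hsp90b1, Calr and Pdia4 spread widely in AAV-GFP.

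**Figure D2:**
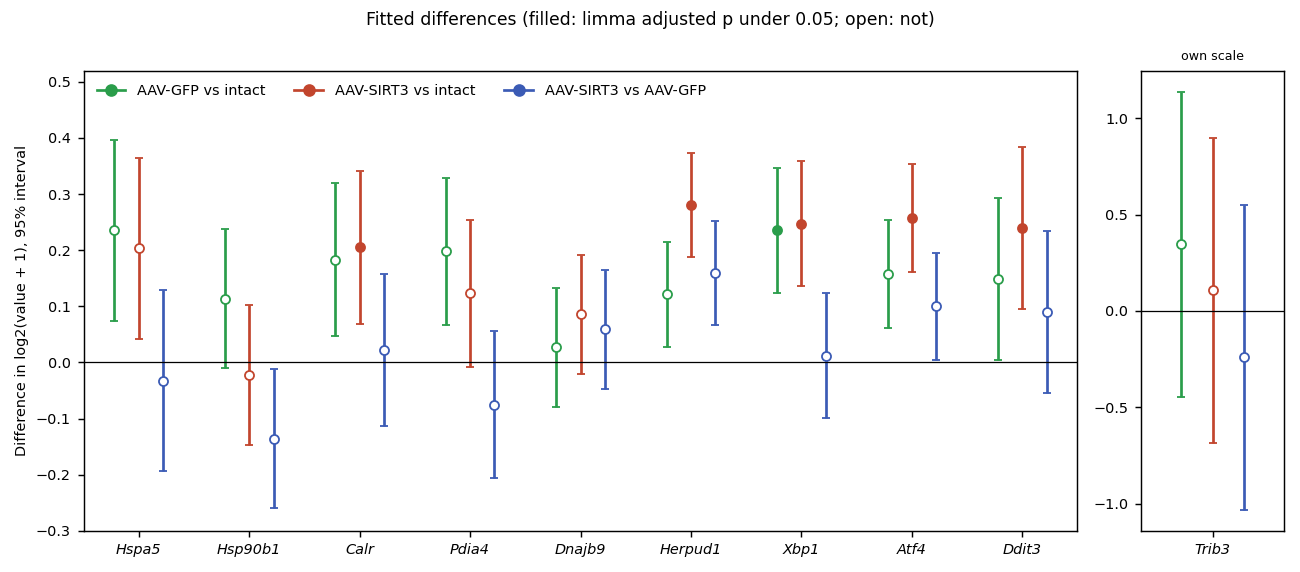
Fitted differences in log2(value + 1) (y axis) of each member (x axis) in the 3 comparisons, with 95% intervals from limma, and with Trib3 on a scale of its own. Filled points passed an adjusted p of 0.05, which holds for 5 members in AAV-SIRT3 against intact, 1 in AAV-GFP against intact and 0 in AAV-SIRT3 against AAV-GFP.

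Among the chaperones and folding enzymes, Calr was the most abundant member per kilobase of exon, and it rose in AAV-SIRT3. Calr encodes calreticulin, a calcium-binding lectin chaperone of glycoproteins. Its values ran from 17311 through a median of 18348 to 18752 in intact libraries, from 17810 through 20524 to 24892 in AAV-GFP, and from 19497 through 20896 to 22654 in AAV-SIRT3. Every AAV-SIRT3 library was above every intact library, while AAV-GFP overlapped both other groups. Groups that did not overlap, with the first higher, were seen for 5.01% of all genes in AAV-SIRT3 against intact, and for 3 members, Calr, Herpud1 and Xbp1. The rise was 0.20 (SE 0.066, limma, adjusted p = 0.0302), and it was lost in 4 of the 18 fits that left out 1 library (intact replicate 1 or 3, AAV-SIRT3 replicate 2 or 4), with an adjusted p of up to 0.0674. It was also lost with quantile normalisation (limma, adjusted p = 0.0926) and with all genes above 0 tested (limma, adjusted p = 0.0591). In AAV-GFP the difference from intact was 0.18 (limma, adjusted p = 0.131).

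Hspa5 encodes BiP, the Hsp70 chaperone of the ER lumen and the classic indicator of the UPR. It ran from 14394 through a median of 15423 to 16160 in intact libraries, from 14386 through 18228 to 23030 in AAV-GFP, and from 16152 through 17680 to 19464 in AAV-SIRT3. AAV-GFP held both the lowest and the highest of the 18 values, in replicates 4 and 5, and in 35 of 36 pairs of an AAV-SIRT3 with an intact library the AAV-SIRT3 value was the higher. The differences from intact, 0.24 in AAV-GFP (SE 0.078, limma, adjusted p = 0.102) and 0.20 in AAV-SIRT3 (SE 0.078, limma, adjusted p = 0.0650), missed the threshold. Without AAV-GFP replicate 4, the difference of AAV-GFP from intact was 0.30 (limma, adjusted p = 0.0348), and both differences passed with DESeq2. That of AAV-SIRT3 also passed without AAV-GFP replicate 4 or 5 (limma, adjusted p = 0.0317 and 0.0275), with array weights (0.0410) and with only the 2 groups fitted (0.00556).

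Hsp90b1 encodes GRP94, the Hsp90 of the ER, which folds integrins and Toll-like receptors. Its mean was 15691 ± 445 in intact, 17071 ± 2044 after AAV-GFP and 15469 ± 966 after AAV-SIRT3 (SD, 6 libraries each). It was the one member whose mean in AAV-SIRT3 was below intact, by -0.02 (limma, adjusted p = 0.823). Between AAV-SIRT3 and AAV-GFP it differed by -0.14 with a 95% interval from -0.26 to -0.01 and a limma adjusted p of 0.286. The gene overlaps the pseudogene 1810014B01Rik on the opposite strand, whose mean was 231.

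Pdia4 encodes ERp72, a protein disulfide isomerase. It averaged 2220 ± 90.8 in intact, 2564 ± 347 after AAV-GFP and 2418 ± 95.2 after AAV-SIRT3 (SD, 6 libraries each). AAV-GFP replicate 5 was highest at 3164, and the 5 other AAV-GFP libraries lay between 2270 and 2711. The differences from intact were 0.20 in AAV-GFP (limma, adjusted p = 0.0928) and 0.12 in AAV-SIRT3 (limma, adjusted p = 0.171). The first passed with DESeq2 (adjusted p = 0.0398), and the second with only the 2 groups fitted (limma, adjusted p = 0.0363).

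Of the ERAD and co-chaperone members, Herpud1 showed the lowest adjusted p of all members in any comparison. Its product HERP is a short-lived membrane protein of the ERAD ubiquitin ligase complex, and its gene is a target of both the ATF6 and the PERK branch. The values ran from 3546 through a median of 3761 to 3899 in intact, from 3787 through 4084 to 4403 in AAV-GFP, and from 4308 through 4365 to 5005 in AAV-SIRT3 libraries. All AAV-SIRT3 libraries lay above all intact ones, replicates 2 and 6 stood highest, and AAV-GFP lay between with overlap on both sides. The rise over intact was 0.28 in AAV-SIRT3 (SE 0.045, limma, adjusted p = 0.000632) and the difference was 0.12 in AAV-GFP (SE 0.045, limma, adjusted p = 0.143).

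Herpud1 was also the member with the lowest p between the viruses. AAV-SIRT3 was higher than AAV-GFP by 0.16 (SE 0.045), in 32 of 36 pairs of libraries, with a limma p of 0.00182 that became 0.123 after adjustment. Without AAV-GFP replicate 2, the highest of its group, the difference was 0.18 and passed (limma, adjusted p = 0.0282). Without that same library, 861 genes passed in this comparison, against 22 with it.

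Dnajb9 encodes ERdj4, a co-chaperone of BiP that is a target of XBP1. It averaged 3118 ± 172 in intact, 3181 ± 232 after AAV-GFP and 3311 ± 188 after AAV-SIRT3 (SD, 6 libraries each), and the groups overlapped. It passed in 0 comparisons, with differences of 0.03, 0.09 and 0.06 and limma adjusted p from 0.239 to 0.817. The 95% interval of its difference between AAV-SIRT3 and intact ran from -0.02 to 0.19.

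Of the transcription factors, Xbp1 was higher in both virus groups. Its values ran from 3660 through a median of 3838 to 4063 in intact, from 4008 through 4554 to 5101 in AAV-GFP, and from 4352 through 4569 to 4850 in AAV-SIRT3 libraries. The AAV-SIRT3 libraries were all above the intact ones, and AAV-GFP replicates 2, 3 and 5 stood above the highest AAV-SIRT3 library. The rise was 0.24 in AAV-GFP (SE 0.054, limma, adjusted p = 0.0283) and 0.25 in AAV-SIRT3 (SE 0.054, limma, adjusted p = 0.00324), and the viruses differed by 0.01 with a 95% interval from -0.10 to 0.12.

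The rise of Xbp1 in AAV-GFP was lost without intact replicate 4 or without AAV-GFP replicate 2, 3 or 5, with 0 members then called, and 2 members were called without intact replicate 6 or AAV-GFP replicate 4. Its largest adjusted p in those fits was 0.0695, and its lowest difference 0.20. Gene counts do not separate the unspliced Xbp1 mRNA from the form cut by IRE1, so the level of the active factor was not measured here.

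Atf4 encodes the main effector of the integrated stress response, which is set largely by translation, so its mRNA is an incomplete measure of its activity. It ran from 6403 through a median of 7177 to 7812 in intact, from 7461 through 7886 to 8450 in AAV-GFP, and from 7689 through 8555 to 8936 in AAV-SIRT3 libraries. Of 36 pairs of AAV-SIRT3 and intact libraries, the AAV-SIRT3 value was higher in 35. The rise was 0.26 in AAV-SIRT3 (SE 0.046, limma, adjusted p = 0.00117), against 0.16 in AAV-GFP (SE 0.046, limma, adjusted p = 0.0732) and 0.10 between the viruses (limma, adjusted p = 0.310).

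Ddit3 encodes CHOP, the pro-apoptotic factor of prolonged ER stress. It ran from 810 through a median of 879 to 915 in intact, from 886 through 957 to 1068 in AAV-GFP, and from 862 through 1057 to 1246 in AAV-SIRT3 libraries. AAV-SIRT3 replicate 6 was highest and replicate 3 of the same group fell within the intact range. Its rise in AAV-SIRT3 was 0.24 (SE 0.070, limma, adjusted p = 0.0186). The gene shares 68 bases with the opposite-strand gene Mars, and the strand setting of the counting is not given in the sources used here.

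Trib3 encodes a pseudokinase that is induced by ATF4 and CHOP and inhibits AKT. It was low, with values from 8.60 to 56.5 over the 18 libraries. The means were 20.6 ± 8.12, 27.8 ± 15.9 and 23.0 ± 11.4 without virus, after AAV-GFP and after AAV-SIRT3 (SD, 6 libraries each). The groups overlapped, and the 95% interval of AAV-SIRT3 against intact ran from -0.69 to 0.90.

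Per kilobase of exon, Calr led in intact libraries with a mean level of 6335, followed by Hsp90b1 at 3892, Hspa5 at 3640, Atf4 at 3006 and Herpud1 at 1603. Dnajb9 at 1223 and Xbp1 at 1189 came next, then Pdia4 at 925, Ddit3 at 512 and Trib3 at 9.71. The ranges of Hsp90b1 and Hspa5 overlapped, as did those of Dnajb9 and Xbp1, and the other neighbours did not overlap. By the longest transcript in place of the union of exons, Dnajb9 and Xbp1 changed places.

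The chaperones varied together from mouse to mouse, and most of all in AAV-GFP. After each group's mean was subtracted, the Pearson r of log2(value + 1) over the 18 libraries was 0.82 to 0.93 for the 6 pairs among Hspa5, Hsp90b1, Calr and Pdia4. Within groups these pairs ran from 0.94 to 0.97 in AAV-GFP, 0.29 to 0.79 in intact and 0.25 to 0.86 in AAV-SIRT3 libraries. For the 24 pairs of a chaperone with another member the median r was 0.18, and for the 15 pairs of the other members 0.21. Libraries share tissue composition and dissection, so these values describe the set of mice. The 4 chaperones were all highest in AAV-GFP replicate 5, followed by replicates 2 and 3, and lower in replicates 1, 4 and 6.

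Xbp1 went with the chaperones within AAV-GFP. Its r with Hspa5 was 0.97 over the 6 AAV-GFP libraries, against 0.03 over intact and 0.27 over AAV-SIRT3 ones, and its r with Hsp90b1 was 0.96, -0.50 and -0.44 in the same order. With Pdia4 it was 0.92, -0.14 and 0.56, and with Calr 0.99, -0.25 and 0.08. Over all 18 group-centred libraries the r of Xbp1 with Hspa5 was 0.77, and 0.55 without AAV-GFP replicates 5 and 4, the libraries farthest from the median of Hspa5. The r of Atf4 with Hspa5 was -0.15. Herpud1 was closest to Ddit3, with r 0.75. Leaving out the same libraries gave r of 0.80, 0.88 and 0.77 for Hspa5 with Hsp90b1, Calr and Pdia4.

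**Figure D3:**
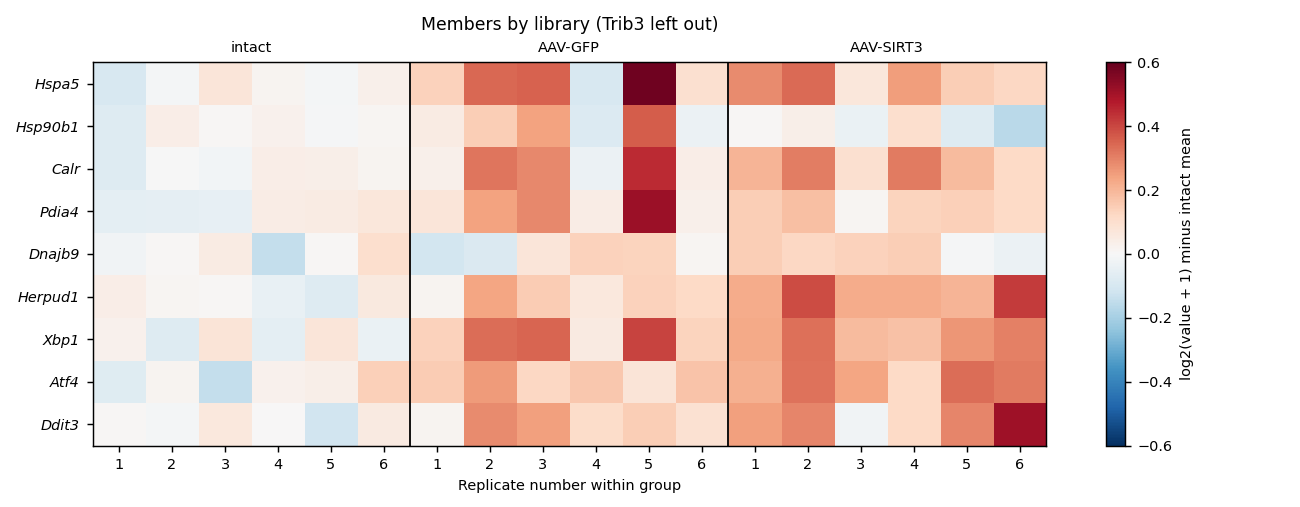
Difference of log2(value + 1) from the intact mean (colour) for 9 members (rows, without the low Trib3) in the 18 libraries (columns, replicates 1 to 6 of each group). Hspa5, Hsp90b1, Calr, Pdia4 and Xbp1 are high together in AAV-GFP replicates 2, 3 and 5, while Herpud1, Xbp1 and Atf4 are raised across AAV-SIRT3.

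**Figure D4:**
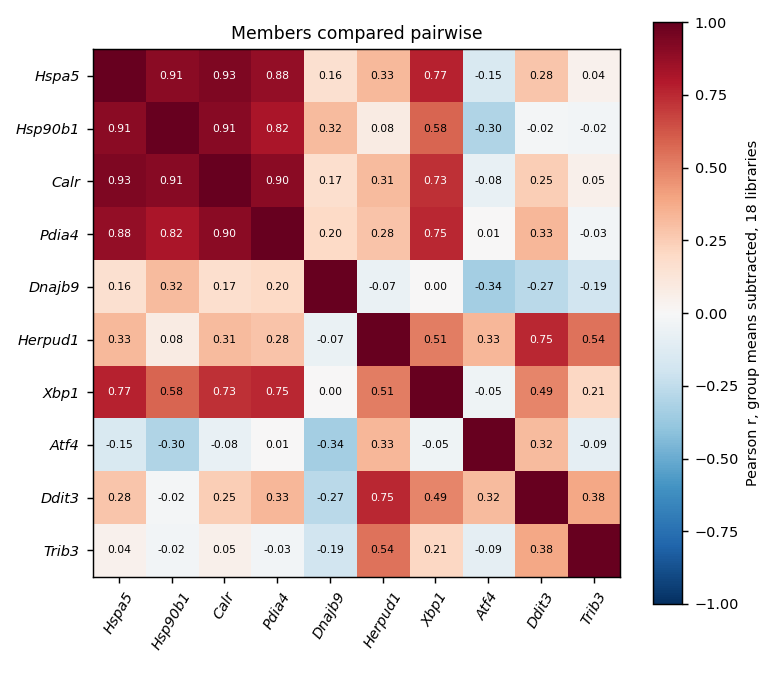
Pearson r (colour and printed number) of log2(value + 1) between members (rows and columns) over 18 libraries with group means subtracted. The block of Hspa5, Hsp90b1, Calr and Pdia4 holds r from 0.82 to 0.93 (0.94 to 0.97 within AAV-GFP, 0.29 to 0.79 within intact, 0.25 to 0.86 within AAV-SIRT3). Xbp1 is at 0.58 to 0.77 with these 4 (0.92 to 0.99 within AAV-GFP, -0.50 to 0.03 within intact, -0.44 to 0.56 within AAV-SIRT3). Atf4 is between -0.30 and 0.01 with the same 4.

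The spread of the chaperones within AAV-GFP was wide for genes of their level. The SD of the log2 values of Hspa5 was 0.24 in AAV-GFP libraries, against 0.06 in intact and 0.10 in AAV-SIRT3 ones. Over 8536 genes with a mean of at least 1000, the median SD in AAV-GFP was 0.09, and 1.75% of them exceeded Hspa5. For Calr, Pdia4 and Hsp90b1 the SDs in AAV-GFP were 0.20, 0.19 and 0.17, exceeded by 3.94%, 4.73% and 7.23% of those genes.

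Markers of reactive astrocytes moved with this pattern, and their part in it was not tested. All 8 listed markers were measured, 3 of the 8 rose in AAV-GFP against intact, and their summed value ran from 24047 to 44062 in AAV-GFP libraries, against 18134 to 26581 in intact and 18858 to 26838 in AAV-SIRT3 ones. Their score, the mean log2 value relative to the mean of all libraries, was 1.32 in AAV-GFP replicate 5, 0.93 and 0.92 in replicates 2 and 3, and 0.70, 0.35 and -0.36 in replicates 1, 4 and 6. Its group-centred r was 0.70 with Hspa5, 0.68 with Hsp90b1, 0.67 with Calr, 0.77 with Pdia4, 0.59 with Xbp1 and 0.07 with Atf4. Markers of activated microglia moved with AAV-GFP too, and 9 of 10 rose against intact, with a summed value of 5075 to 11468 in intact and 8631 to 14547 in AAV-GFP libraries. Their score did not overlap, with intact libraries at or below -0.41 and AAV-GFP libraries from 0.20 to 1.28. Of the 10 general microglia markers, 4 rose, with a score of -0.25 to -0.10 in intact and -0.06 to 0.25 in AAV-GFP libraries. The group-centred r of Xbp1 was 0.46 with the activated and 0.57 with the general microglia score, and their part in the rise of Xbp1 was not tested. In bulk tissue, more cells of a type and more RNA per cell cannot be told apart.

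AAV-GFP replicate 5 also carried choroid plexus RNA, with Ttr at 39158 normalised reads against 230 to 1117 in the rest of its group. The other library of this kind was intact replicate 2, with Ttr at 44471, and its Hspa5 value of 15280 lay within the range of its group. With both libraries left out, 0 members passed in AAV-GFP against intact, where Xbp1 had a difference of 0.19 (limma, adjusted p = 0.0853). In AAV-SIRT3 against intact 6 members then passed, with Hspa5 added at 0.20 (limma, adjusted p = 0.0451).

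Other markers moved with the comparison of AAV-SIRT3 with intact, and the thalamic and pituitary ones below had similar medians in AAV-GFP. Of 8 thalamic neuron markers, 5 rose, and their summed value was 54967 to 95117 in intact against 79674 to 100540 in AAV-SIRT3 libraries, low in intact replicates 1, 3 and 5. Their median difference was 0.38, against 0.40 in AAV-GFP against intact, where 1 of the 8 rose. With the thalamic score as a covariate, 3 members passed, Herpud1 at 0.28, Xbp1 at 0.32 and Atf4 at 0.18, while Calr (limma, adjusted p = 0.126) and Ddit3 (limma, adjusted p = 0.0746) did not. The same 3 passed after a trend with gene length and GC content was removed, with Herpud1 at 0.20, Xbp1 at 0.18 and Atf4 at 0.17. Over all genes tested, 2206 of 19443 rose in the main fit, 951 of 19443 with the covariate and 1685 of 18855 without the trend.

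Of 10 interferon response markers, 9 rose in AAV-SIRT3 against intact, with a summed value of 1945 to 2606 in intact and 3152 to 9762 in AAV-SIRT3 libraries. Of 10 microglia markers, 6 rose, and their sum was 20786 to 23129 in intact and 23468 to 27655 in AAV-SIRT3 libraries. Anterior pituitary markers, of a gland rich in secretory cells, were higher in intact libraries, with a sum of 740 to 5425 against 239 to 806 in AAV-SIRT3, and 4 of 6 tested fell, with Pou1f1 below 10 in every library. The median of the 6 tested pituitary markers was -2.89, against -2.80 in AAV-GFP against intact, where 4 fell too. In AAV-SIRT3 against intact, 5 of 8 endothelium markers fell, with a median of -0.35. Of 10 activated microglia markers 6 rose there, with a median of 0.42. AAV-SIRT3 replicate 6, highest of its group for Herpud1 and Ddit3, had an interferon score of 1.96, against 0.17 to 0.94 in the rest of the group. Its plasma and B cell score, 2.30, was the highest of the 18 libraries. Those markers summed to 1008 to 7560 in AAV-SIRT3 and 1028 to 2809 in intact libraries, and 0 of 5 tested rose. The group-centred r of their score was 0.44 with Ddit3, 0.39 with Xbp1 and 0.37 with Herpud1. The part of these lists in the differences of the members was not tested.

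The wider pathway was read from 8 lists. Beside each count in AAV-SIRT3 against intact stand the shares over all genes tested, 11.3% that rose and 10.3% that fell. In AAV-SIRT3 against intact, ER chaperones and folding enzymes had 10 of 28 genes rise and 0 fall, with a median of 0.09. The lists hold the members, and without them 9 of 24 rose. The largest rises were those of Sdf2l1, a BiP cofactor, at 0.48, Ero1b, a disulfide oxidase, at 0.33, Manf, a secreted ER protein known as a trophic factor of dopamine neurons, at 0.31, Fkbp2 at 0.29, Creld2 at 0.25 and Erp29 at 0.21. Manf averaged 1636 ± 68.8 in intact, 1932 ± 281 after AAV-GFP and 2024 ± 134 after AAV-SIRT3 (SD, 6 libraries each), with no overlap between intact and AAV-SIRT3. The count of the list was 5 with the thalamic score as a covariate and 3 after the length and GC trend was removed. Rises over all genes were also fewer in these fits, 951 of 19443 and 1685 of 18855, against 2206 of 19443. The same background applies to the counts of the lists below.

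Of 26 ERAD genes, 6 rose and 1 fell in AAV-SIRT3 against intact, with a median of 0.05. Without the member Herpud1, 5 of 25 rose and 1 fell, where 11.3% of all genes rose and 10.3% fell. Selenok, a selenoprotein of the ERAD complex, rose by 0.24. Edem3, a mannosidase that marks glycoproteins for degradation, fell by 0.19 on the log2 scale. With the thalamic score as a covariate 2 of the 26 rose, and after the length and GC trend was removed 3 rose.

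Of the genes of the 3 sensors, Ern1 fell, and Atf6 and Eif2ak3 passed in 0 comparisons. Ern1, which encodes IRE1 alpha, ran from 859 through a median of 915 to 934 in intact, from 683 through 745 to 871 in AAV-GFP, and from 659 through 685 to 746 in AAV-SIRT3 libraries. Every AAV-SIRT3 library was below every intact one, and the share of all genes that did so is not given here. Ern1 fell by 0.39 on the log2 scale in AAV-SIRT3 (SE 0.058, limma, adjusted p = 0.000538), and it passed in all 33 alternative fits of that comparison, with adjusted p of up to 0.0121.

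In AAV-GFP, Ern1 fell by 0.24 on the log2 scale (SE 0.058, limma, adjusted p = 0.0352), a call that 12 of 33 alternatives lost, among them those without intact replicate 1, 3, 4 or 5 or without AAV-GFP replicate 2, 3, 4 or 6. Atf6 differed by -0.06 and -0.13 from intact in AAV-GFP and AAV-SIRT3 (limma, adjusted p = 0.627 and 0.109). Eif2ak3, which encodes PERK, differed by 0.07 and 0.06 (limma, adjusted p = 0.341 and 0.331). Of the 14 tested genes of the sensor list, 3 rose and 2 fell in AAV-SIRT3 against intact, where 11.3% of all genes rose and 10.3% fell. Without the member Xbp1, 2 of 13 rose and 2 fell. The list had 1 rise in 10 of the 18 fits that left out 1 library. In those fits the library left out was any of intact replicates 1, 2, 3, 5 and 6, AAV-GFP replicates 3 and 6 and AAV-SIRT3 replicates 1, 3 and 5. The list also had 1 rise with edgeR, with the thalamic covariate, without the length and GC trend and without both choroid plexus libraries.

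XBP1 targets of the secretory route moved both ways in AAV-SIRT3 against intact, with 9 of 31 rising and 4 falling and a median of 0.06. Without the member Dnajb9, 9 of 30 rose and 4 fell. The translocon subunits Sec61b and Sec61g rose by 0.32 and 0.23, and Ssr2 by 0.21. The translocon subunit Sec61a1 was lower, with a mean of 2215 ± 51.0 after AAV-SIRT3 against 2505 ± 83.7 in intact (SD, 6 libraries each). Sec24d of the COPII coat fell by 0.28 on the log2 scale, the Golgi tether Golgb1 fell by 0.22 and the cargo receptor Lman1 fell by 0.19. With the thalamic score as a covariate 2 rose and 3 fell.

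Of the 45 tested genes of the PERK and ATF4 branch, 14 rose and 2 fell in AAV-SIRT3 against intact, with a median of 0.10. Without the members, 12 of 42 rose and 2 fell. The genes that rose include enzymes of amino acid synthesis, with Pycr1 (proline) at 0.45, Cth (cysteine) at 0.35 and Gpt2 (alanine) at 0.27, and the factor Atf5 at 0.33. The arginine transporter Slc7a1 fell by 0.25 on the log2 scale in AAV-SIRT3 and by 0.24 in AAV-GFP. In AAV-GFP against intact 2 of the 45 rose, Cth at 0.45 and Gpt2 at 0.20. That count was 1 in 11 of the 18 fits that left out 1 library (any of intact replicates 1 to 5, AAV-GFP replicates 2, 3, 5 and 6 and AAV-SIRT3 replicates 2 and 3), 4 without AAV-GFP replicate 1 and 0 with the thalamic covariate. Cth averaged 202 ± 15.9 in intact, 278 ± 29.7 after AAV-GFP and 259 ± 33.4 after AAV-SIRT3 (SD, 6 libraries each), and neither virus group overlapped intact. Groups apart in this way were seen for 5.01% of all genes in AAV-SIRT3 against intact, and the share in AAV-GFP is not given here. In AAV-SIRT3 against intact 7 rose with the thalamic score as a covariate, and 8 after the length and GC trend was removed. The known stress targets Gdf15 and Fgf21 were under the filter on low values.

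Among eIF2 kinases and subunits of eIF2 and eIF2B, 5 of 14 rose and 1 fell in AAV-SIRT3 against intact, where 11.3% of all genes rose and 10.3% fell. Those that rose were the eIF2B subunits Eif2b2 at 0.19, Eif2b1 at 0.16, Eif2b5 at 0.15 and Eif2b4 at 0.13, and Eif2s1, which encodes eIF2 alpha, at 0.11. The kinase GCN2, encoded by Eif2ak4, fell by 0.17 on the log2 scale. The count of rises was 3 without intact replicate 2 or 4 or AAV-SIRT3 replicate 2, 5 or 6, 2 without intact replicate 3 or 5, and 1 with the thalamic covariate.

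Genes of ER stress and apoptosis included 3 of 14 that rose in AAV-SIRT3 against intact, Pmaip1 (NOXA) at 0.42, Ddit3 at 0.24 and Bak1 at 0.23, and 1 that fell, Bcl2l11 (BIM), by 0.39 on the log2 scale. Without the members Ddit3 and Trib3, 2 of 12 rose and 1 fell, where 11.3% of all genes rose and 10.3% fell. With intact replicate 3, 4 or 5 or AAV-SIRT3 replicate 1, 2 or 3 left out, 1 rose. With the thalamic score as a covariate 0 rose and 2 fell, and after the length and GC trend was removed 1 rose and 1 fell. Of 20 cytosolic heat shock genes, which belong to a separate stress response, 1 rose, the HSP90 cochaperone Ahsa1 at 0.17. The count was 0 without intact replicate 3 or with the thalamic covariate, and 2 without intact replicate 1 or 6 or AAV-SIRT3 replicate 3. In AAV-GFP against intact limma called at most 2 genes of any of the 8 lists as rises, while DESeq2 called 6 ER chaperones and folding enzymes and 6 genes of the PERK and ATF4 branch. Over all 19443 genes, limma called 160 rises in that comparison and DESeq2 called 448. In AAV-SIRT3 against AAV-GFP 0 genes of the 8 lists passed by limma, edgeR or DESeq2 in the direction of a rise.

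**Figure D5:**
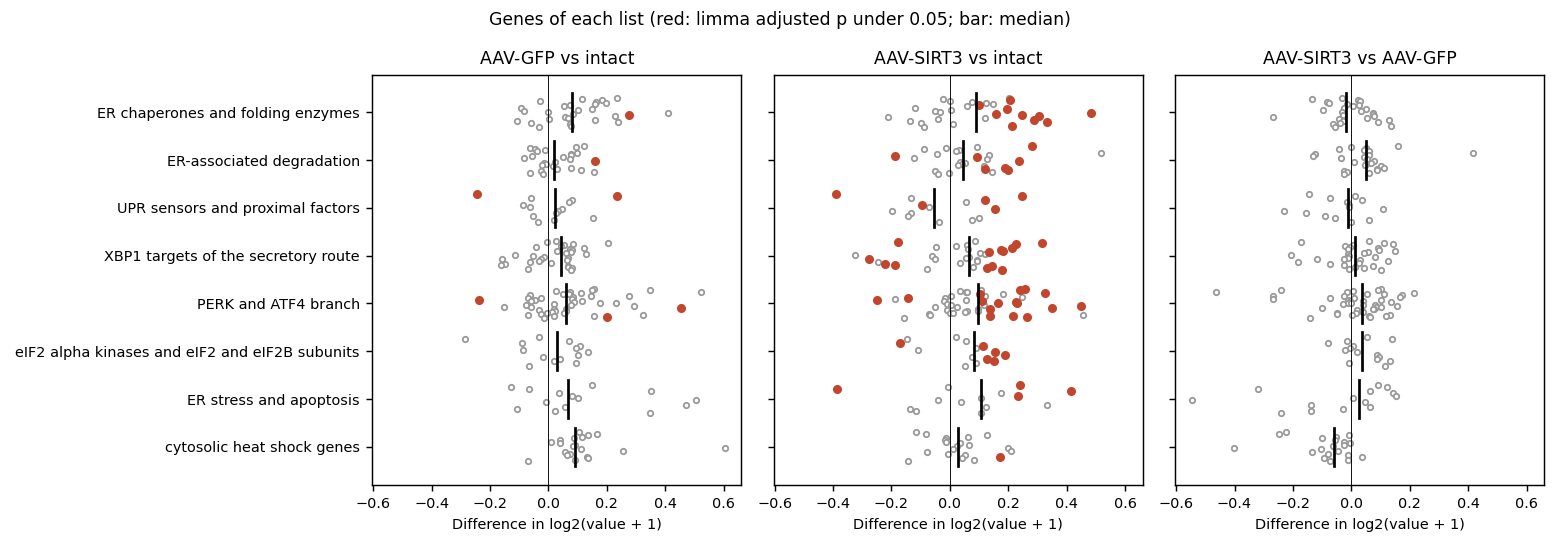
Differences in log2(value + 1) (x axes) of the tested genes of 8 lists (rows) in the 3 comparisons (panels), with each gene a point, genes with a limma adjusted p below 0.05 in red and the median as a bar. Red points are mostly to the right in AAV-SIRT3 against intact, such as 10 of 28 ER chaperones, and absent in AAV-SIRT3 against AAV-GFP.

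Genes with the pattern most like each regulator across the mice were taken from 15244 genes with a mean of at least 50, by group-centred r over 18 libraries. For Hspa5 they were Pdia6 (0.94), Calr (0.93), Sdf2l1 (0.91), Pdia3 (0.91) and Hsp90b1 (0.91). For Xbp1 they were Plcb3 (0.90), Cryab (0.85), Sdf2l1 (0.83), Pnpla2 (0.82) and Slc15a4 (0.81). For Atf4 they were Itgb1bp1 (0.87), 2810025M15Rik (0.85), Arpc4 (0.83), Aar2 (0.83) and Pick1 (0.83). For Ddit3 they were Pfdn5 (0.89), Ech1 (0.87), Rps23 (0.84), Mettl26 (0.84) and Ankrd54 (0.84). Sdf2l1 thus appeared for both Hspa5 and Xbp1, and its values in AAV-GFP, 298 to 720, were highest in replicate 5 and next highest in 2 and 3.

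Other genes with the ERSE letters printed above for Hspa5 moved both ways, as did all genes tested. Of 18 tested genes outside the members with an ERSE in the same window, 2 rose in AAV-SIRT3 against intact, Creld2 and Ero1b, and 3 fell. Over all genes tested, 11.3% rose and 10.3% fell in that comparison. The median of the 18 genes was -0.0073, against -0.0049 over all genes. Their r with Hspa5 ranged from -0.25 to 0.94 with a median of 0.27, against -0.01 over all 19442 other tested genes. Dnajc3, an ERSE gene that encodes a BiP co-chaperone and was chosen after its values were seen, had r 0.83 with Hspa5 but a difference of 0.0038 between AAV-SIRT3 and intact.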

How the data were processed

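The table the authors deposited gives a normalised signal for each gene and library, which its name describes as HTSeq counts after DESeq2 normalisation. Per the submitters' processing notes, HISAT2 2.1.0, DESeq2 1.34.0 and mm10 were used. The annotation and strand setting are not given in the sources used here. Multiplying each column by a size factor gave whole reads for 100% of the values above 0 (within 0.001 reads). Factors close to 1 (1.00 in intact replicate 4, 1.01 in AAV-SIRT3 replicate 4) make this a weaker proof there. All 18 columns were matched to samples and 0 were left without a match.

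Tests used R 4.3.3 and limma 3.58.1 on log2(value + 1), a scale that understates changes of low genes, with 1 model of 3 groups, a variance trend, 15 residual degrees of freedom and genes with at least 10 in at least 6 libraries. It called 358, 4214 and 22 genes in AAV-GFP against intact, AAV-SIRT3 against intact and AAV-SIRT3 against AAV-GFP. On recovered reads edgeR 4.0.16 called 362, 4086 and 24, and DESeq2 1.42.0 called 1000, 4616 and 304. Replicates differed by more than sampling noise (chi-square per degree of freedom of 8.27 to 36.6), so each library is 1 sample. Reads carry no molecular identifiers, so depth speaks of counting error alone.

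The members and lists were chosen with earlier results of these data known. Of each list, at most 6 called genes with the largest differences and a mean of at least 50 are named. Ern1, Atf6 and Eif2ak3 are named in any case, and Sec61a1 is named beside the other translocon subunits. Likeness was read for 4 regulators. Gene lengths and positions are from GENCODE M21, promoters from RefSeq. Alternatives left out each library in turn or changed normalisation, filter, pseudocount, tool, model or covariates. Leaving out both libraries high in choroid plexus genes was added after seeing the data.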

Additional observations from a re-analysis of the deposited data

How the results depend on the processing

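Herpud1, Xbp1 and Atf4 rose in AAV-SIRT3 against intact in all 33 alternatives run. The number of members called ranged from 0 to 2 in AAV-GFP against intact, 4 to 6 in AAV-SIRT3 against intact and 0 to 1 in AAV-SIRT3 against AAV-GFP when 1 library was left out, and the number of all genes called from 129 to 686, 3279 to 4633 and 5 to 861. In AAV-GFP against intact, members called were 0 with all genes above 0 tested, with only the 2 groups fitted or without both choroid plexus libraries, 4 with DESeq2 and 3 at an adjusted p of 0.1. All genes called there were 164 with all genes above 0, 1000 with DESeq2, 200 with 2 groups, 638 with array weights, 39 with the thalamic covariate and 1144 at 0.1. In AAV-SIRT3 against intact, the thalamic covariate left 3 members and 1783 genes, and removing the length and GC trend 3 members and 3009 genes. In AAV-SIRT3 against AAV-GFP, all genes called were 304 with DESeq2, 8 with 2 groups, 121 with array weights, 42 without the length and GC trend, 8 without the choroid plexus libraries and 80 at 0.1. Where groups or filters change, fewer samples or more genes enter; the cause of the other shifts was not tested.

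With a replicate block, 1, 5 and 0 members and 372, 3923 and 13 genes were called. The shared numbers do not pair the mice, since same-numbered libraries had a median r of -0.0053 and 1 of 18 pairs was over 0.1, and 2 of 36 correlated best with their own number.

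Differences near 0 changed sign. With 1 library left out, the ranges were -0.0012 to 0.054 for Dnajb9 in AAV-GFP against intact, -0.047 to 0.0050 for Hsp90b1 and -0.085 to 0.34 for Trib3 in AAV-SIRT3 against intact, and between the viruses -0.099 to 0.037 for Hspa5, -0.021 to 0.075 for Calr and -0.024 to 0.046 for Xbp1. Dnajb9 was at -0.0068 in AAV-GFP against intact without the length and GC trend. Between the viruses, Hspa5 was at 0.023 with array weights and 0.037 without both choroid plexus libraries, Calr at -0.0048 with quantile normalisation and -0.0083 without the length and GC trend, and Xbp1 at -0.0020 and -0.028 under these.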

Other observations

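Hspa1b, an inducible cytosolic Hsp70 gene chosen after its values were seen, ran from 95.3 through a median of 163 to 694 in AAV-GFP libraries, with 694 in replicate 5 and 255 and 227 in replicates 3 and 2, the same 3 libraries in which the ER chaperones were high. The other AAV-GFP libraries lay between 95.3 and 98.7, while intact libraries ran from 125 to 243 and AAV-SIRT3 libraries from 102 to 220. Its difference between AAV-GFP and intact was 0.17 (SE 0.362, limma, adjusted p = 0.849). Across 18 libraries with group means subtracted, its r was 0.95 with Pdia4 and 0.93 with Calr. Dnajb9 did not share this pattern, and the genes most like it were Cul3 (0.89) and Btbd1 (0.86), with an r of 0.67 between Dnajb9 and the percentage of reads on mitochondrial genes.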
